A study of Mus musculus with 6 samples.

Results

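The genes described here are the chemokine ligands and their receptors in C2C12 cells, mouse myoblasts grown as a line that form multinucleated myotubes in low serum. They were taken by symbol, as every gene named *Ccl*, *Cxcl*, *Ccr*, *Cxcr* or *Ackr* followed by a number, together with *Cx3cl1* and *Cx3cr1*. This gave 43 of the 23231 genes listed in the deposited files, of which 28 were ligands and 15 were receptors. Counted as ligands by symbol are *Ccl19-ps3*, annotated as an unprocessed pseudogene, and *Cxcl11*, annotated as a polymorphic pseudogene. A further 18 genes with such a name were listed in no library and were taken as 0, among them *Ccl1*, *Ccl12*, *Ccl19*, *Ccl20*, *Ccl28*, *Ccr3*, *Ccr4*, *Ccr8*, *Cxcr1*, *Ackr1* and *Ackr2*.

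Chemokines are small secreted proteins that direct the movement of leukocytes, and they are grouped as CC, CXC or CX3C by the spacing of their first cysteines. They act through receptors of the G protein-coupled class, while the atypical receptors of the Ackr group bind chemokines without classical G protein signalling and so mainly clear or redistribute them. In injured skeletal muscle, chemokines bring in monocytes and neutrophils, and myogenic cells themselves can release several of them.

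The study asked what silencing of an enhancer of *Myog*, termed Myog-En5, does to the transcriptome, and poly(A) RNA was sequenced on day 5 of differentiation in horse serum. In 3 libraries the cells were dCas9-KRAB cells, with a nuclease-dead Cas9 fused to the KRAB repressor domain and no enhancer guide, and in 3 they were dCas9-KRAB-En5 cells, in which the same fusion was combined with a pair of guides against Myog-En5. Both groups were transduced with lentivirus and selected with puromycin, so the control cells carry the repressor and the virus too. The labels do not say whether replicates came from separate cultures, so p-values measure the spread between these libraries, which may be technical.

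The libraries held 31831093 to 73988425 counts, with less depth in dCas9-KRAB-En5 (31831093 to 40384720) than in dCas9-KRAB (40554323 to 73988425). dCas9-KRAB-En5 replicate 3 stood apart, with 13991 genes listed against 17084 to 19395 in the others and the highest share of counts in ribosomal protein genes (20.6% against 9.12% to 16.7%). *Myog*, whose enhancer was targeted, was at 1065, 1224 and 1118 TPM (transcripts per 1000000) in dCas9-KRAB and at 0.379, 0 and 0 TPM in dCas9-KRAB-En5. The summed TPM of 10 myogenic markers was 3764, 8977 and 6550 in dCas9-KRAB and 14.9, 8.41 and 15.8 in dCas9-KRAB-En5, so the markers of the labelled cell type were abundant in the control libraries and near 0 in the others. Of 20 macrophage markers, 17 were listed and 9 reached 10 TPM in all 6 libraries, among them *Csf1r*, *Cd68*, *Tyrobp* and *Lyz2*, whereas *Cd163*, *Marco* and *Mrc1* were listed in no library and *C1qa*, *C1qb* and *C1qc* stayed below 1 TPM. Their sum was 8691, 6620 and 7436 TPM in dCas9-KRAB and 21650, 13670 and 16580 TPM in dCas9-KRAB-En5. The 2 groups did not overlap in this sum, and edgeR called 0 of the 14 macrophage markers tested lower and 1 higher, *Adgre1* (0 and 4 at an unadjusted p under 0.05). Over all genes tested, edgeR called 4.67% lower and 1.52% higher (16.3% and 16.6% at an unadjusted p under 0.05). DESeq2 and the fit with the replicate number as a block each called 0 lower and 2 higher, *Adgre1* and *Itgam*. Their shares over all genes were 7.9% lower and 5.31% higher with DESeq2, and 6.79% and 3.94% with the block. Macrophages are a common source of chemokines, and the part of this marker difference in the results was not tested. In bulk RNA, fewer cells of a type and less RNA per cell cannot be told apart.

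At least 10 counts in a library were reached by 36 of the 43 genes, by 24 of 28 ligands and 12 of 15 receptors. In all 6 libraries 17 genes reached it, 12 ligands and 5 receptors. The number was 34 when any dCas9-KRAB library sufficed and 28 for any dCas9-KRAB-En5 library, with the difference in depth in place. The 7 genes that stayed below 10 counts were *Ccl19-ps3*, *Ccl24*, *Cxcl15*, *Cxcl17*, *Ccr9*, *Cxcr2* and *Cxcr6*.

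Counts were compared with edgeR's quasi-likelihood test, dCas9-KRAB-En5 over dCas9-KRAB, and a gene was called at a Benjamini-Hochberg adjusted p no higher than 0.01 where the log2 fold change was 1 or more in size. Of the 29 chemokine genes that passed the low-count filter, 10 were lower in dCas9-KRAB-En5, 5 were higher and 14 were not called. Over all 14378 genes tested, 4.67% were called lower and 1.52% higher, against 34.5% and 17.2% of the tested chemokine genes. *Ccl11*, *Cxcl9*, *Cxcl12* and *Ccl22* passed the filter through 1 group alone, since the other group had fewer than 10 counts in every library, and their calls follow in part from that filter. Without them, 7 of 25 tested genes were lower (28%) and 4 were higher (16%). *Ccr7*, among those 4, had 0, 3 and 10 counts in dCas9-KRAB, so its call may follow in part from the filter too. DESeq2 called 11 of the 43 lower and 7 higher, with 7.9% and 5.31% of all genes as background. Ranges of TPM in the 2 groups did not overlap for 12 tested genes that were below and 6 that were above in dCas9-KRAB-En5, against 19.7% and 7.76% of all genes tested. The edgeR counts fell to 4 lower and 0 higher without dCas9-KRAB replicate 1, where 13 and 6 had an unadjusted p under 0.05 and where DESeq2 called 11 and 6. They were 6 and 1 without dCas9-KRAB replicate 2, 7 and 1 without dCas9-KRAB replicate 3, 8 and 3 without dCas9-KRAB-En5 replicate 1, 7 and 5 without replicate 2, and 12 and 6 without replicate 3 of that group. The calls over all genes moved too, to 1.43% lower and 0.0397% higher without dCas9-KRAB replicate 1, to 14% and 11.7% without dCas9-KRAB-En5 replicate 3, and to between 2.02% and 3.26% lower and between 0.133% and 0.847% higher without each of the others.

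Ligands and receptors differed in their counts of calls. Of 21 tested ligands, 9 were lower and 3 higher (42.9% and 14.3%), and their median log2 fold change was -2.43. Of 8 tested receptors, 1 was lower and 2 were higher (12.5% and 25%), with a median log2 fold change of -0.08. The median over all genes tested was 0.075. Without the 4 ligands that passed the filter through 1 group alone, 6 of 17 ligands were lower and 2 higher (35.3% and 11.8%, median log2 fold change -2.36). No tested receptor had fewer than 10 counts in every library of 1 group. *Ccr7*, called higher, came close to it, with 0, 3 and 10 counts in dCas9-KRAB. The difference between ligands and receptors was not itself tested.

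Among CC ligands, 5 of the 11 tested were lower and 2 were higher. The monocyte chemoattractants *Ccl2*, *Ccl7* and *Ccl8* and the eosinophil chemoattractant *Ccl11*, also called eotaxin, lie side by side within 81.2 kb on chromosome 11 (82035571 to 82116799, GRCm38), and all 4 were lower in dCas9-KRAB-En5. *Ccl2*, the main ligand of Ccr2 on monocytes, was at 77.2, 134.5 and 146.6 TPM in dCas9-KRAB replicates 1 to 3 and at 1.16, 0.259 and 1.07 TPM in dCas9-KRAB-En5. Its mean fell from 119 ± 37.0 to 0.832 ± 0.498 TPM (SD, n = 3), 144-fold, and the groups were far apart. The log2 fold change of *Ccl2* was -7.07 (SE 0.81, adjusted p = 0.000222 in edgeR's quasi-likelihood test).

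*Ccl8* was the most abundant ligand of the dCas9-KRAB libraries by mean TPM, at 554, 361 and 395 TPM there and at 2.03, 0.693 and 7.27 TPM in dCas9-KRAB-En5. Its mean was 131-fold lower, with a log2 fold change of -6.66 (SE 1.06, adjusted p = 0.00201 in edgeR). *Ccl7* was at 97.8, 102 and 164 TPM in dCas9-KRAB and at 4.89, 0.663 and 4.64 TPM in dCas9-KRAB-En5, a 35.8-fold lower mean (log2 fold change -5.03, SE 0.85, adjusted p = 0.00288 in edgeR). For both genes the lowest control library was more than 10 times above the highest dCas9-KRAB-En5 library. *Ccl11* had 189, 232 and 244 counts in dCas9-KRAB and 0 in each dCas9-KRAB-En5 library. Set against a floor of 3 counts per library it was at least 43.7-fold lower, with an adjusted p of 0.000595 in edgeR. *Ccl11* passed the filter through the dCas9-KRAB libraries alone. Without dCas9-KRAB replicate 1 the adjusted p in edgeR rose to 0.0323 for *Ccl7*, 0.0318 for *Ccl8* and 0.0143 for *Ccl11*, while *Ccl2* was called under every alternative in which it was tested. Without dCas9-KRAB-En5 replicate 3 the log2 fold changes in edgeR were larger in size, at -7.92 for *Ccl2*, -6.00 for *Ccl7* and -8.89 for *Ccl8*.

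A further group of CC ligands, *Ccl5*, *Ccl9*, *Ccl6*, *Ccl3* and *Ccl4*, spans 138.9 kb of chromosome 11 (83525778 to 83664683, GRCm38) and was split in direction. *Ccl3* and *Ccl4*, the macrophage inflammatory proteins, were the most abundant chemokines of the dCas9-KRAB-En5 libraries. *Ccl3* was at 105, 288 and 280 TPM in dCas9-KRAB and at 2706, 1578 and 810 TPM in dCas9-KRAB-En5, without overlap. Its mean rose from 224 ± 104 to 1698 ± 954 TPM (SD, n = 3), 7.57-fold (log2 fold change 2.69, SE 0.56, adjusted p = 0.00802 in edgeR). *Ccl4* was at 129, 269 and 326 TPM in dCas9-KRAB and at 2078, 817 and 638 TPM in dCas9-KRAB-En5, which did not overlap either. It missed the threshold in edgeR (log2 fold change 2.09, SE 0.56, adjusted p = 0.0265) and passed it in DESeq2 (adjusted p = 0.00263) and in edgeR without dCas9-KRAB-En5 replicate 3 (adjusted p = 0.00998). Leaving out dCas9-KRAB replicates 1, 2 and 3 moved its adjusted p in edgeR to 0.107, 0.107 and 0.0827. Leaving out dCas9-KRAB-En5 replicate 1 moved it to 0.0927.

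*Ccl5*, known as RANTES and a ligand of Ccr1, moved the other way from its neighbours *Ccl3* and *Ccl4*. It was at 93.4, 435 and 292 TPM in dCas9-KRAB and at 40.1, 43.9 and 33.1 TPM in dCas9-KRAB-En5, a 7.00-fold lower mean (log2 fold change -2.85, SE 0.58, adjusted p = 0.0079 in edgeR). dCas9-KRAB replicate 1 was the lowest of the control libraries and still lay above all dCas9-KRAB-En5 libraries. *Ccl9*, a ligand of Ccr1, was at 96.8, 58.9 and 96.7 TPM in dCas9-KRAB and at 96.8, 84.95 and 61.1 TPM in dCas9-KRAB-En5, with overlapping ranges (log2 fold change -0.21, SE 0.47, adjusted p = 0.792 in edgeR). *Ccl6* ranged from 0.268 to 3.33 TPM over the 6 libraries and was not called. In edgeR the call of *Ccl3* was lost without any dCas9-KRAB replicate (adjusted p 0.0451, 0.0451 and 0.0424 for replicates 1, 2 and 3) and without dCas9-KRAB-En5 replicate 1 (0.0191). The call of *Ccl5* was lost without any dCas9-KRAB replicate (0.0114, 0.0382 and 0.031) and without dCas9-KRAB-En5 replicates 1 (0.0225) and 2 (0.0268).

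*Ccl22* and *Ccl17* both act on Ccr4 and lie with *Cx3cl1* in 66.4 kb of chromosome 8 (94745590 to 94812036, GRCm38). *Ccl22* had 0, 2 and 0 counts in dCas9-KRAB and 600, 286 and 44 counts in dCas9-KRAB-En5, and passed the filter through the latter alone. The ratio of summed counts per depth was 734 (95% counting interval 203 to 6071, exact and for counting error only), and the adjusted p was 0.000548 in edgeR and 0.0166 without dCas9-KRAB replicate 1. The fitted log2 fold change of *Ccl22*, 9.05 with all libraries, was 11.31 and 8.41 without dCas9-KRAB replicates 2 and 3 and 8.33 without dCas9-KRAB-En5 replicate 1. *Ccl17* was scarce, with 5, 20 and 7 counts in dCas9-KRAB and 1, 1 and 0 in dCas9-KRAB-En5, and did not pass the filter. *Cx3cl1*, the membrane-bound ligand of Cx3cr1, was at 0.966, 7.28 and 3.43 TPM in dCas9-KRAB and at 0.516, 0.075 and 0 TPM in dCas9-KRAB-En5. These ranges did not overlap, and *Cx3cl1* was not called in edgeR (log2 fold change -4.62, SE 1.14, adjusted p = 0.0185). With the replicate number as a block, *Cx3cl1* was called lower (adjusted p = 0.00659 in edgeR), in a fit that called 6.79% of all genes lower and 3.94% higher. It was also called lower by DESeq2 (adjusted p = 5.607e-06) and in edgeR without dCas9-KRAB-En5 replicate 1 (0.000961) or replicate 3 (0.00721). The remaining CC ligand tested, *Ccl25*, ranged from 0.0235 to 0.856 TPM and was not called.

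**Figure D1:**
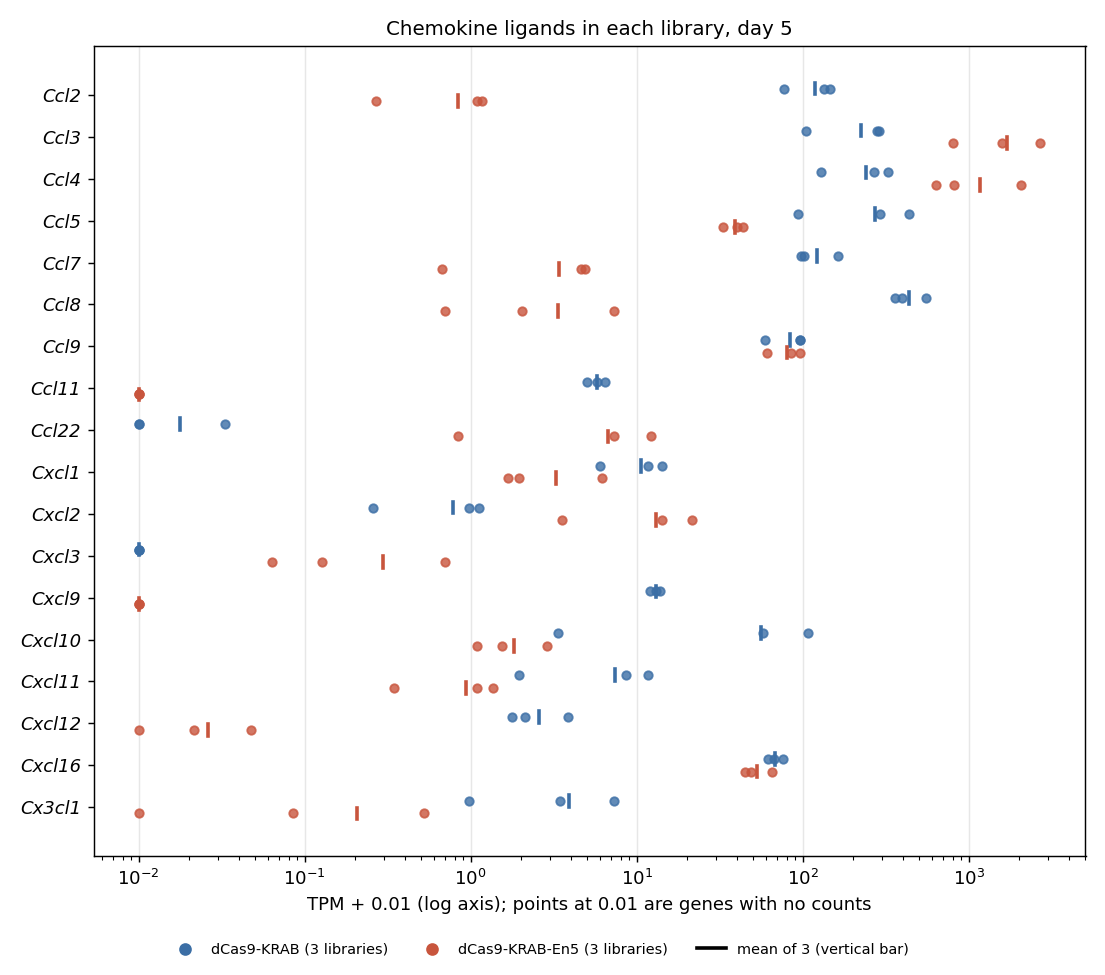
TPM + 0.01 of 18 chemokine ligands on a log axis, with 1 point per library (blue dCas9-KRAB, red dCas9-KRAB-En5), vertical bars for the means of 3 and genes with no counts at 0.01. *Ccl2*, *Ccl7* and *Ccl8* lie at 77.2 to 554 TPM in dCas9-KRAB and at 0.259 to 7.27 TPM in dCas9-KRAB-En5, while *Ccl3* lies higher in all 3 dCas9-KRAB-En5 libraries.

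Of the 9 CXC ligands tested, 4 were lower and 1 was higher. *Cxcl9*, *Cxcl10* and *Cxcl11* are the interferon-inducible ligands of Cxcr3 on T cells, lie within 44.1 kb of chromosome 5 (92321347 to 92365485, GRCm38), and were all lower. *Cxcl9* was at 12.1, 13.9 and 13.1 TPM in dCas9-KRAB (989, 1567 and 1772 counts) and had no counts in any dCas9-KRAB-En5 library. Against the floor of 3 counts per library it was at least 276-fold lower (adjusted p = 3.395e-05 in edgeR), as a gene that passed the filter through the dCas9-KRAB libraries alone. *Cxcl10* was at 3.34, 107 and 57.8 TPM in dCas9-KRAB and at 1.53, 2.85 and 1.09 TPM in dCas9-KRAB-En5, so the groups separated narrowly because dCas9-KRAB replicate 1 was low. Its mean was 30.8-fold lower (log2 fold change -5.10, SE 0.95, adjusted p = 0.00502 in edgeR). *Cxcl11* was at 1.93, 8.65 and 11.6 TPM in dCas9-KRAB and at 1.08, 1.35 and 0.334 TPM in dCas9-KRAB-En5, an 8.02-fold lower mean (log2 fold change -3.33, SE 0.67, adjusted p = 0.00744 in edgeR). dCas9-KRAB replicate 1 was again the lowest control library. Without dCas9-KRAB replicate 2 the adjusted p in edgeR was 0.0215 for *Cxcl10* (log2 fold change -4.39, against -5.71 without dCas9-KRAB replicate 1) and 0.029 for *Cxcl11*. The call of *Cxcl11* was also lost without dCas9-KRAB replicate 3 (0.0352) and dCas9-KRAB-En5 replicates 1 (0.0138) and 2 (0.0173). Exons of *Cxcl10* overlap *Art3* on the other strand and those of *Cxcl11* overlap *Gm2673*, and whether counting used the strand is not given in the sources used here.

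*Cxcl12*, the ligand of Cxcr4 and Ackr3, had 392, 1184 and 780 counts in dCas9-KRAB (1.77, 3.87 and 2.13 TPM) and 2, 0 and 7 counts in dCas9-KRAB-En5. The mean TPM was 159-fold lower, from 2.59 to 0.0163 TPM (log2 fold change -7.03, SE 1.04, adjusted p = 0.00116 in edgeR). *Cxcl12* passed the filter through the dCas9-KRAB libraries alone, and the ratio was taken over a dCas9-KRAB-En5 mean near the detection limit. The groups did not overlap, and the adjusted p without dCas9-KRAB replicate 1 was 0.0171. The log2 fold change of *Cxcl12* was -9.10 without dCas9-KRAB-En5 replicate 3 and -6.34 without dCas9-KRAB-En5 replicate 2.

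The neutrophil-attracting ligands of Cxcr2, *Cxcl1*, *Cxcl2*, *Cxcl3* and *Cxcl5*, lie with *Cxcl15* in 146.6 kb of chromosome 5 (90759360 to 90905938, GRCm38). The bases before the start of the first 3 are shown because these neighbours hold the same match to the 10-letter NF-kB consensus and had unlike values, with *Cxcl10* shown beside them. They are the 250 bases upstream of the RefSeq start on GRCm38.p6, written 5′ to 3′ in the direction of transcription. Capitals mark matches to the NF-kB consensus on either strand and, in *Cxcl10*, also to the interferon-stimulated response element (GAAA, any 2 bases, GAAA) and the AP-1 motif (TGANTCA).
Cxcl1 (chr5:90890995-90891244, plus strand): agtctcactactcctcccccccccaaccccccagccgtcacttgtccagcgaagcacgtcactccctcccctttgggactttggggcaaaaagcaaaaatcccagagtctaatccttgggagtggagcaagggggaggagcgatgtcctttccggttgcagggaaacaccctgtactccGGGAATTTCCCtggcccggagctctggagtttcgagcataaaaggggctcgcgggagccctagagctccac
Cxcl2 (chr5:90903649-90903898, plus strand): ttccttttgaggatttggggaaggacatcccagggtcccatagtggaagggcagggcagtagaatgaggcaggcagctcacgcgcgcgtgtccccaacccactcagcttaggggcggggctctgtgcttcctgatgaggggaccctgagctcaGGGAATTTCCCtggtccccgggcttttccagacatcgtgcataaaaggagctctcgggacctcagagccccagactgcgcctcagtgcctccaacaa
Cxcl3 (chr5:90785851-90786100, plus strand): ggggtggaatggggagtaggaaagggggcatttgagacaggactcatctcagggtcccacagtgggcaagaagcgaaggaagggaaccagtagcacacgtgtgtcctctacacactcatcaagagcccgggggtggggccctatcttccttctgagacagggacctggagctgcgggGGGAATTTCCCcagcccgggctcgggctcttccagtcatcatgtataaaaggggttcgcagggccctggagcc
Cxcl10 (chr5:92348890-92349139, minus strand): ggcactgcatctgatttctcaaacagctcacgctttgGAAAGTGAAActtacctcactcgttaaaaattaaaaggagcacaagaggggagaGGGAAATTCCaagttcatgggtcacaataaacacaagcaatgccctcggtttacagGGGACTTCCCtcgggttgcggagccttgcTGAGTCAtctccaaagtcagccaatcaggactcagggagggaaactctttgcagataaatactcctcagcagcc
The run GGGAATTTCCC holds a match on each strand, 1 base apart, and starts 71 bases before the start of *Cxcl1*, 97 before that of *Cxcl2* and 73 before that of *Cxcl3*. *Cxcl10* holds NF-kB matches at 159 and 103 bases, GAAAGTGAAA at 213 bases and TGAGTCA at 74 bases before its start. RefSeq promoters were found for 28 of the 43 genes, in 30 windows. Among the genes without one, and so not searched, were *Ccl2*, *Ccl4*, *Ccl5*, *Ccl7*, *Ccl11*, *Cxcl5*, *Cxcl11*, *Cxcl16*, *Ccr7*, *Ccr10* and *Cxcr5*. An NF-kB match lay in 6 of the 30 windows (20%) and in 3.9% of 32851 promoters of the same length, and windows of 1 family are related in sequence. The response element was in 6.67% of the windows against 2.98% of all, and the AP-1 motif in 6.67% against 6.75%. *Ccl3*, *Ccl8*, *Ccl22*, *Cxcl9*, *Cxcl12*, *Cxcr4* and *Ackr3* held no match to these 3 motifs in the window. A match is a description of letters and shows no binding.

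*Cxcl2* was at 0.249, 1.11 and 0.961 TPM in dCas9-KRAB and at 21.6, 14.3 and 3.53 TPM in dCas9-KRAB-En5, without overlap and with dCas9-KRAB-En5 replicate 3 the lowest of its group. Its mean rose from 0.774 ± 0.460 to 13.1 ± 9.10 TPM (SD, n = 3), 17.0-fold (log2 fold change 3.74, SE 0.69, adjusted p = 0.00464 in edgeR). *Cxcl3* had 0 counts in every dCas9-KRAB library and 4, 7 and 55 counts in dCas9-KRAB-En5. It did not pass edgeR's filter, was at least 16.4-fold higher against the floor of 3 counts per library, and was called higher by DESeq2 (adjusted p = 9.088e-05). dCas9-KRAB-En5 replicate 3 held most of its counts, and without that library the bound was 2.33-fold, from 11 counts. *Cxcl1* was at 6.03, 14.2 and 11.7 TPM in dCas9-KRAB and at 6.14, 1.67 and 1.96 TPM in dCas9-KRAB-En5, so dCas9-KRAB-En5 replicate 1 lay within the control range (log2 fold change -1.85, SE 0.61, adjusted p = 0.0579 in edgeR). *Cxcl5* was at 8.15, 13.5 and 6.72 TPM in dCas9-KRAB and at 1.95, 0.317 and 2.23 TPM in dCas9-KRAB-En5, without overlap and not called (log2 fold change -2.43, SE 0.81, adjusted p = 0.06 in edgeR). *Cxcl1* and *Cxcl2* hold the same motif match, and *Cxcl2* was called higher while *Cxcl1* was not called. The difference between the genes and the part of the motif in it were not tested. *Cxcl2* lost its call in edgeR without any dCas9-KRAB replicate (adjusted p 0.0259, 0.0234 and 0.0147), and 5.84% of its 50-base words and 4.24% of those of *Cxcl3* also occur in annotated transcripts of other genes.

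*Cxcl16*, a membrane-bound ligand of Cxcr6 that also takes up oxidised lipoprotein, was not called. It was at 61.9, 67.0 and 76.1 TPM in dCas9-KRAB and at 44.8, 49.1 and 65.0 TPM in dCas9-KRAB-En5, with overlap (log2 fold change -0.29, SE 0.54, adjusted p = 0.739 in edgeR). Without dCas9-KRAB-En5 replicate 3 its log2 fold change was -1.18 (adjusted p = 0.0206 in edgeR), still not called. *Cxcl14*, a chemokine of epithelia and other tissues, ranged from 2.22 to 7.87 TPM in dCas9-KRAB and from 4.66 to 15.5 TPM in dCas9-KRAB-En5 and was not called. The B cell attractant *Cxcl13* had 2, 7 and 13 counts in dCas9-KRAB and none in dCas9-KRAB-En5. It did not pass edgeR's filter and was not called by DESeq2 (adjusted p = 0.243).

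**Figure D2:**
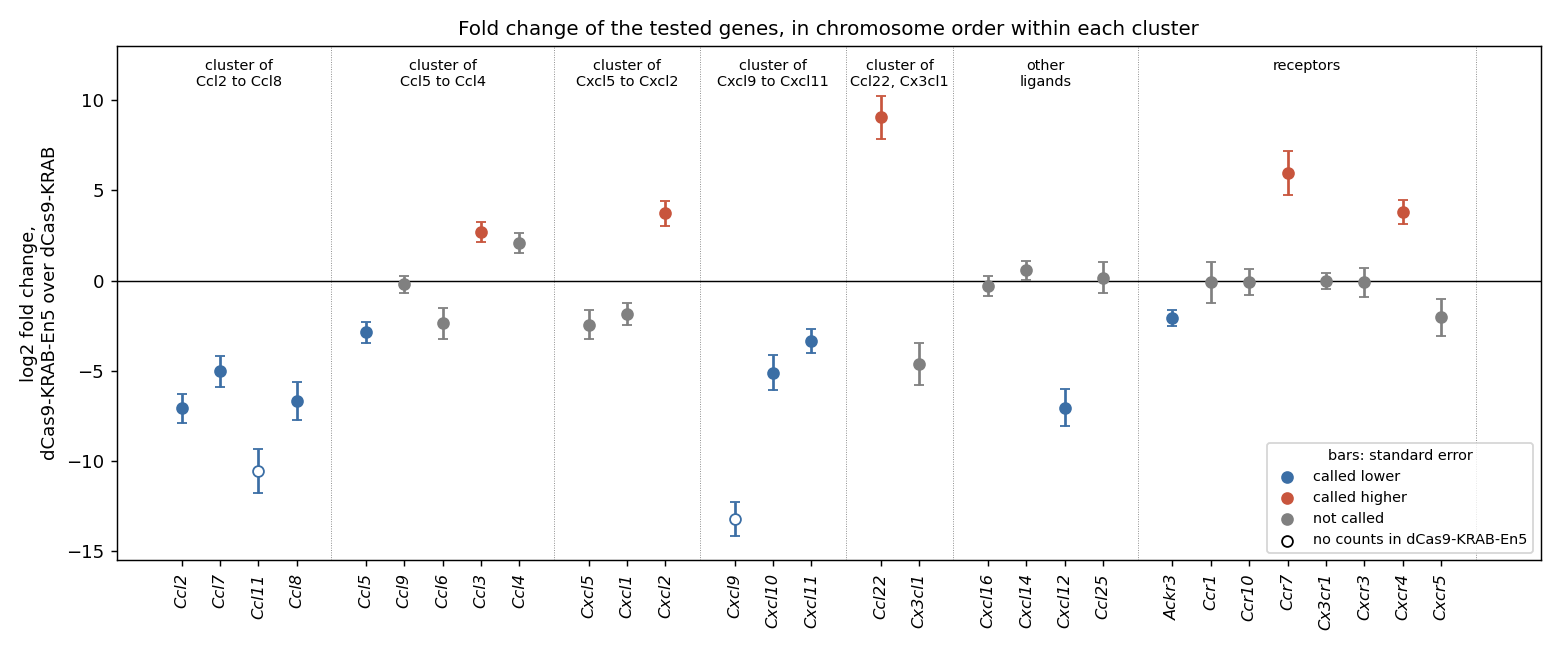
Log2 fold change of each tested chemokine ligand and receptor, dCas9-KRAB-En5 over dCas9-KRAB, arranged by chromosomal cluster, with bars for the standard error, colours for the call (blue lower, red higher, grey not called) and hollow markers for *Ccl11* and *Cxcl9*, whose fitted values rest on the prior count because dCas9-KRAB-En5 had no counts. The *Ccl2* and *Cxcl9* clusters lie wholly below 0, while the clusters of *Ccl3* and of *Cxcl2* hold values on both sides.

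The make-up of the ligand RNA shifted with these changes, as summed TPM by groups of ligands chosen after their values were seen. *Ccl2*, *Ccl7*, *Ccl8* and *Ccl11* together held 58.3%, 31.8% and 37.4% of the summed ligand TPM in dCas9-KRAB and 0.161%, 0.0616% and 0.794% in dCas9-KRAB-En5. *Ccl3* and *Ccl4* held 18.5%, 29.3% and 31.9% in dCas9-KRAB and 95.1%, 91.4% and 88.5% in dCas9-KRAB-En5. Neither share overlapped between the groups. *Ccl5* held 7.4% to 22.9% in dCas9-KRAB and 0.798% to 2.02% in dCas9-KRAB-En5, and *Cxcl9*, *Cxcl10* and *Cxcl11* together 1.38% to 6.83% and 0.0519% to 0.161%. The summed ligand TPM was 1262, 1901 and 1901 in dCas9-KRAB and 5030, 2620 and 1636 in dCas9-KRAB-En5, where the ranges overlapped. For CXC ligands alone the sum was 97.8, 236 and 188 TPM in dCas9-KRAB and 86.8, 85.2 and 79.5 TPM in dCas9-KRAB-En5, without overlap.

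**Figure D3:**
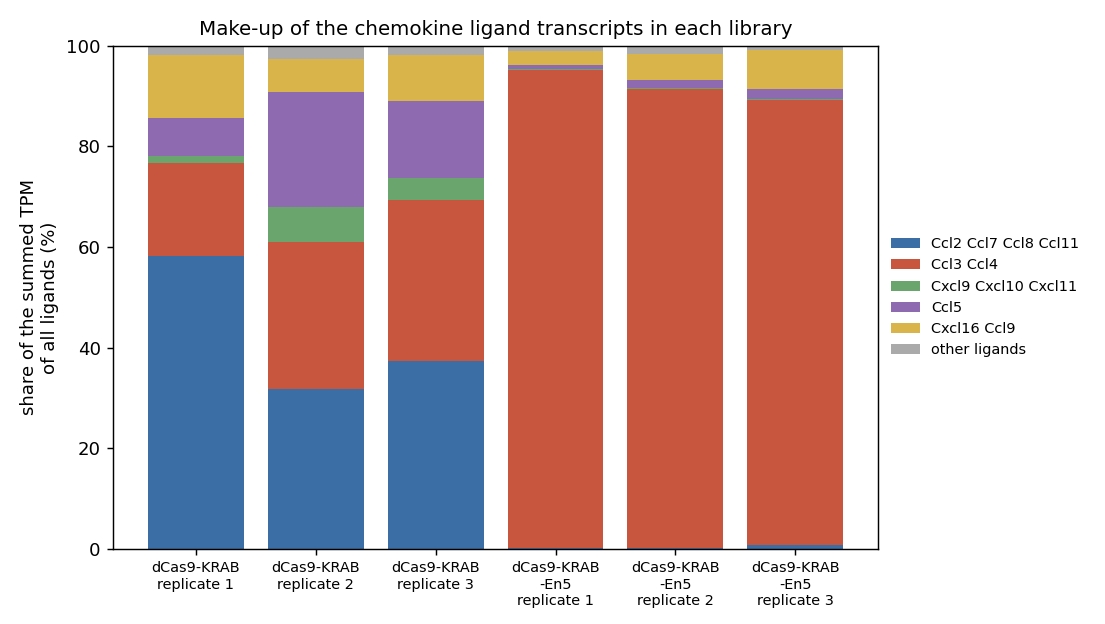
Share of the summed chemokine ligand TPM in each library, in percent, stacked by ligand group. The *Ccl3* and *Ccl4* share is 18.5% to 31.9% in the dCas9-KRAB libraries and 88.5% to 95.1% in the dCas9-KRAB-En5 libraries.

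Among the 13 signalling receptors, 7 were tested, of which 2 were higher and 0 lower in edgeR, DESeq2 and the blocked fit alike. At an unadjusted p under 0.05 in edgeR, 2 were higher and 0 lower too. Over all genes, 4.67% were lower and 1.52% higher in edgeR, and 16.3% and 16.6% at an unadjusted p under 0.05. The shares were 7.9% and 5.31% in DESeq2 and 6.79% and 3.94% in the blocked fit. With 7 genes, 0 lower is close to these shares. *Cxcr4*, which binds Cxcl12 and guides progenitor and immune cells, was at 7.85, 3.99 and 2.95 TPM in dCas9-KRAB and at 117, 152 and 14.4 TPM in dCas9-KRAB-En5. The mean rose from 4.93 ± 2.58 to 94.6 ± 71.6 TPM (SD, n = 3), 19.2-fold (log2 fold change 3.79, SE 0.65, adjusted p = 0.00328 in edgeR). The groups did not overlap, although dCas9-KRAB-En5 replicate 3 was far below the other replicates of its group. *Ccr7*, the receptor that brings mature dendritic cells and naive T cells to lymph nodes, had 0, 3 and 10 counts in dCas9-KRAB and 451, 106 and 19 counts in dCas9-KRAB-En5 (10.8, 3.16 and 0.42 TPM). Its mean was 93.5-fold higher (log2 fold change 5.95, SE 1.22, adjusted p = 0.00779 in edgeR), again with replicate 3 the lowest of dCas9-KRAB-En5. This ratio of *Ccr7* was taken over a dCas9-KRAB mean of 0.0511 TPM, near the detection limit. Its ligands *Ccl19*, *Ccl21a* and *Ccl21b* were listed in no library. Leaving out dCas9-KRAB replicate 1, 2 or 3 gave adjusted p-values in edgeR of 0.0183, 0.027 and 0.02 for *Cxcr4* and of 0.0557, 0.0444 and 0.0108 for *Ccr7*, which was at 0.04 without dCas9-KRAB-En5 replicate 1. The log2 fold change of *Ccr7* was 7.20 without dCas9-KRAB replicate 3 and 4.59 without dCas9-KRAB-En5 replicate 1.

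The other tested receptors were not called, and their ranges overlapped between the groups. *Cx3cr1*, the fractalkine receptor of monocytes and microglia, was at 12.8, 32.5 and 18.2 TPM in dCas9-KRAB and at 26.1, 40.7 and 9.59 TPM in dCas9-KRAB-En5 (log2 fold change -0.03, SE 0.45, adjusted p = 0.976 in edgeR). *Cxcr5*, the receptor of Cxcl13 on B cells, was at 0.796, 2.47 and 1.89 TPM in dCas9-KRAB and at 1.18, 0.531 and 0 TPM in dCas9-KRAB-En5. *Cxcr3*, the receptor of the interferon-inducible ligands above, was at 0.426, 1.81 and 1.03 TPM in dCas9-KRAB and at 1.04, 1.06 and 0.959 TPM in dCas9-KRAB-En5. These levels were low, and the 3 ligands of Cxcr3 were called lower while *Cxcr3* was not (adjusted p = 0.945 in edgeR). *Ccr10*, a receptor of skin-homing T cells, was at 0.577, 1.56 and 1.53 TPM in dCas9-KRAB and at 1.12, 2.12 and 0.81 TPM in dCas9-KRAB-En5. *Ccr1*, which binds Ccl3, Ccl5 and Ccl9, was at 0.299, 0.358 and 0.402 TPM in dCas9-KRAB and at 1.07, 0.291 and 0 TPM in dCas9-KRAB-En5. Other receptors of CC ligands were close to the detection limit. *Ccr2*, the receptor of Ccl2 and Ccl7, had 0, 0 and 21 counts in dCas9-KRAB and 4, 11 and 0 in dCas9-KRAB-En5. *Ccr6*, the Ccl20 receptor, had 0, 11 and 0 counts in dCas9-KRAB and 2, 8 and 0 in dCas9-KRAB-En5. *Ccr2* and *Ccr6* did not pass edgeR's filter, and DESeq2 called neither (adjusted p = 0.985 and 0.947). At such low counts a difference could hardly be seen. Exons of *Cx3cr1* overlap *Gm33858* and exons of *Cxcr5* overlap *Bcl9l* on the other strand.

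Of the atypical receptors, *Ackr3*, which takes up Cxcl12, was at 14.4, 10.9 and 11.8 TPM in dCas9-KRAB and at 4.67, 3.95 and 1.88 TPM in dCas9-KRAB-En5. The groups did not overlap and the mean was 3.54-fold lower, from 12.4 ± 1.84 to 3.50 ± 1.45 TPM (SD, n = 3; log2 fold change -2.06, SE 0.45, adjusted p = 0.00991 in edgeR). This value was just inside the threshold, and leaving out any library other than dCas9-KRAB-En5 replicate 3 moved the adjusted p in edgeR to 0.0329, 0.0296 and 0.0456 (dCas9-KRAB replicates 1, 2 and 3) and to 0.0358 and 0.0577 (dCas9-KRAB-En5 replicates 1 and 2). *Ackr4* had 12 counts in dCas9-KRAB replicate 3, 2 in dCas9-KRAB-En5 replicate 2 and 0 elsewhere. Of the 3 genes of the Cxcl12 axis, the ligand and *Ackr3* were thus called lower and *Cxcr4* was called higher. The call of *Cxcl12* follows in part from the filter. In edgeR the calls of *Ackr3* and *Cxcr4* were each lost when any 1 dCas9-KRAB replicate was left out.

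The summed receptor TPM was 37.2, 53.7 and 38.0 in dCas9-KRAB and 163, 204.5 and 28.1 in dCas9-KRAB-En5, where replicate 3 lay below the control libraries. *Cxcr4* made up 21.1%, 7.43% and 7.76% of the receptor sum in dCas9-KRAB and 71.7%, 74.4% and 51.3% in dCas9-KRAB-En5. *Ackr3* went from 38.8%, 20.3% and 31.0% to 2.86%, 1.93% and 6.70%, and *Cx3cr1* from 34.4%, 60.5% and 47.8% to 16%, 19.9% and 34.2%. The share of *Cxcr4* was above that of every control library in each dCas9-KRAB-En5 library, replicate 3 included.

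**Figure D4:**
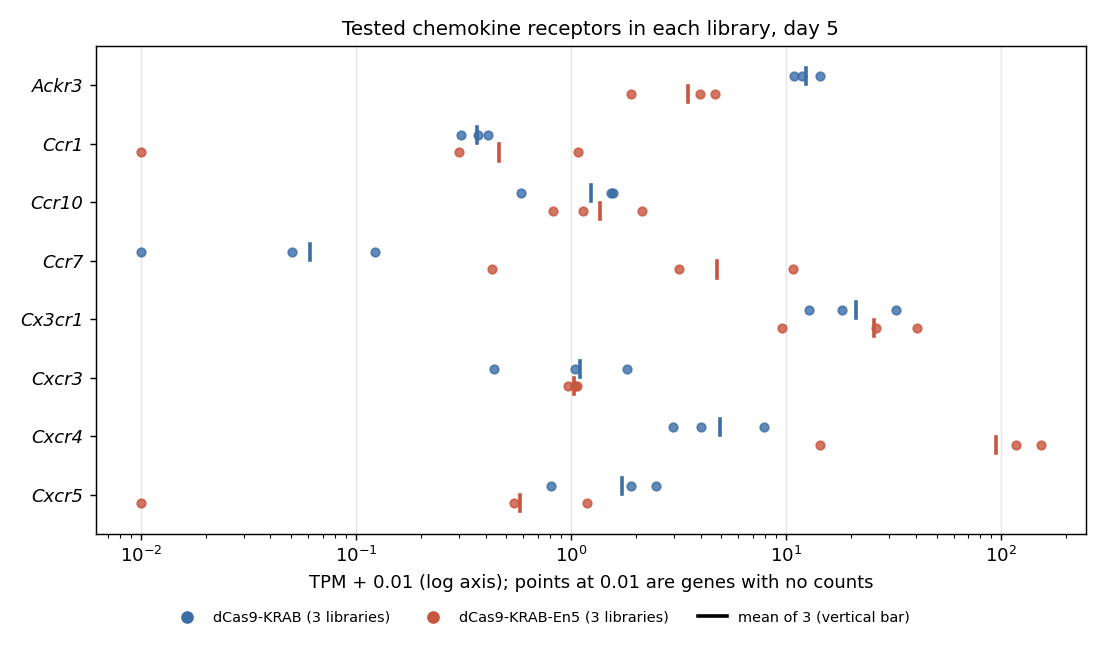
TPM + 0.01 of the 8 tested receptors on a log axis, with 1 point per library (blue dCas9-KRAB, red dCas9-KRAB-En5), vertical bars for the means of 3 and genes with no counts at 0.01. *Cxcr4* lies at 2.95 to 7.85 TPM in dCas9-KRAB and at 14.4 to 152 TPM in dCas9-KRAB-En5, and *Ackr3* at 10.9 to 14.4 TPM against 1.88 to 4.67 TPM.

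Genes that work with chemokines were read from 4 hand-made lists, beside shares over all genes of 4.67% lower and 1.52% higher in edgeR, 7.9% and 5.31% in DESeq2, and 16.3% and 16.6% at an unadjusted p under 0.05 in edgeR. Outside the naming rule, 10 of 11 chemokine-related genes were listed and 4 were tested (*Mif*, *Cd74*, *Ccrl2* and *Rarres2*), and edgeR called 0 of them in either direction, as did DESeq2, with 0 at an unadjusted p under 0.05 and log2 fold changes from -0.66 to 0.55. In receptor signalling, all 52 listed genes of 55 were tested, and edgeR called 0 lower and 1 higher (4 and 13 at an unadjusted p under 0.05, 3 and 4 with DESeq2). This was *Pik3r5*, a regulatory subunit of the phosphoinositide 3-kinase that G protein βγ subunits activate, at 1.45, 7.30 and 4.77 TPM in dCas9-KRAB and 47.6, 76.7 and 18.8 TPM in dCas9-KRAB-En5 (log2 fold change 3.12, SE 0.58, adjusted p = 0.00496 in edgeR). Of 20 NF-kB genes, all tested, edgeR called 0 lower and 1 higher (0 and 7 at an unadjusted p under 0.05, 0 and 5 with DESeq2). *Nfkbiz*, an inducible nuclear cofactor of NF-kB, was at 2.42, 1.52 and 2.07 TPM in dCas9-KRAB and at 74.2, 38.8 and 2.60 TPM in dCas9-KRAB-En5, where replicate 3 lay next to the controls (log2 fold change 3.78, SE 0.78, adjusted p = 0.00824 in edgeR). The blocked fit called 2 receptor signalling genes lower and 3 higher, and 0 and 3 NF-kB genes.

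Secreted chemokines bind to heparan sulfate chains on the cell surface and matrix. Of 20 genes for such carriers and their synthesis, 18 were tested, and edgeR called 3 lower and 0 higher (6 and 2 at an unadjusted p under 0.05, 6 and 2 with DESeq2). The blocked fit called 5 lower and 1 higher. *Ext1*, which extends the heparan sulfate chain, was at 8.16, 9.41 and 4.97 TPM in dCas9-KRAB and at 0.742, 0.723 and 0.238 TPM in dCas9-KRAB-En5 (log2 fold change -4.00, SE 0.48, adjusted p = 0.000331 in edgeR). *Gpc1*, the cell-surface proteoglycan glypican 1, was at 132, 441 and 297 TPM in dCas9-KRAB and at 14.4, 11.5 and 24.8 TPM in dCas9-KRAB-En5 (log2 fold change -3.88, SE 0.75, adjusted p = 0.00592 in edgeR). *Hspg2*, which encodes the matrix proteoglycan perlecan, was at 11.4, 33.0 and 18.6 TPM in dCas9-KRAB and at 2.07, 3.73 and 2.81 TPM in dCas9-KRAB-En5 (log2 fold change -2.86, SE 0.56, adjusted p = 0.00644 in edgeR). None of these 3 genes overlapped between the groups. The median log2 fold changes of the 4 lists were -0.01, 0.39, 0.48 and -0.47 in the order given. Over the 4 lists together, edgeR called 3 lower and 2 higher with all libraries. Without any 1 library other than dCas9-KRAB-En5 replicate 3 it called 1 lower and 0 to 2 higher, and without that replicate 10 lower and 19 higher, in a fit that called 14% of all genes lower and 11.7% higher.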

How the data were processed

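The 6 RNA-Seq libraries were from C2C12 cells on day 5 of differentiation, 3 per group, with groups and replicate numbers from the sample labels. The authors aligned the reads to GRCm38 with HISAT2 2.2.1, and featureCounts gave the raw counts per gene that were deposited. TPM, also deposited by the authors, are counts per gene length scaled to 1000000 per library. The annotation release and the strand setting are not given in the sources used here. Genes absent from a library were taken as 0, and 23155 of 23231 gene IDs were matched to a symbol.

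Counts were compared with edgeR 4.0.16 in R 4.3.3 (TMM, filterByExpr with a minimum count of 10 and a minimum total of 15, quasi-likelihood test, Benjamini-Hochberg adjustment over all 14378 genes tested). Calls needed an adjusted p no higher than 0.01 and a log2 fold change of 1 or more in size. The standard error is the fold change divided by the root of F. The script was tested on simulated data. The alternatives were DESeq2 1.42.0, limma 3.58.1 on TPM with pseudocounts of 1 and 0.1 before the log2, other scalings, filters and cutoffs, and leaving out each replicate. Depth was 31831093 to 73988425 counts, and 3 counts correspond to 0.0405 to 0.0942 counts per 1000000, for counting error only.

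Replicate numbers come from the labels, which do not state shared handling. Libraries with the same number moved together around the means of their groups (correlation across genes 0.214 to 0.29, against -0.34 to -0.051 for different numbers), so a blocked fit on the replicate number was run as well.

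Members, gene lists and cell type markers were chosen with earlier results of these data known. Named with values were members called by edgeR or DESeq2, members with a mean of at least 10 TPM in a group, receptors with at least 10 counts in a library, and called genes of the pathway lists. One item that falls under this rule is not reported here. *Ccl6*, *Ccl17*, *Ccl25*, *Cxcl5*, *Cxcl13* and *Cxcl14* are named besides, to account for their clusters or families, and were chosen after their values were seen. Promoter sequences are from RefSeq on GRCm38.p6, and gene positions from GENCODE on GRCm38.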

Additional observations from a re-analysis of the deposited data

How the results depend on the processing

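With all libraries 10 chemokine genes were lower and 5 higher. Leaving out 1 library gave 4 to 12 lower and 0 to 6 higher, the latter with 0 without dCas9-KRAB replicate 1, where 6 had an unadjusted p under 0.05 in edgeR and DESeq2, an alternative chosen after seeing the data, called 6. Keeping only genes with at least 10 counts in every library left 3 lower and 3 higher, by construction without the genes below 10 counts in some library. Among those were *Ccl2*, *Ccl7* and *Ccl8*, with 5, 9 and 6 counts in dCas9-KRAB-En5 replicate 2, and *Ccl11*, *Cxcl9* and *Cxcl12*. *Ackr3* was tested there and not called (adjusted p = 0.01002 in edgeR). Over all 11640 genes kept, 339 were lower and 205 higher. Scaling by total counts alone gave 3 higher, and 70 of 14378 over all genes. limma gave 6 lower and 1 higher on log2(TPM + 1) and 2 higher on log2(TPM + 0.1), and the cause was not tested. Over all 14378 genes limma called 482 lower and 32 higher on log2(TPM + 1), and 66 higher on log2(TPM + 0.1). At 10 counts in all 6 libraries, 17 genes were detected in place of 36. The replicate block added the call of *Cx3cl1* and changed no other call of a chemokine gene. Of 25 named genes tested, 10 had the same call under every alternative in which they were tested, 8 of them as not called.

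For the 4 pathway lists (3 lower and 2 higher), the values were 9 and 12 with no low-count filter, 9 and 11 with DESeq2, 7 and 7 with the replicate block, and 9 and 12 at an adjusted p of at most 0.05. The calls over all genes moved too, from 671 lower and 219 higher of 14378 to 1194 and 1004 of 23231 with no low-count filter. DESeq2 called 1406 and 944 of 17787 genes, and the replicate block 976 and 567 of 14378. An adjusted p of at most 0.05 gave 1380 and 1069 of 14378. Scaling by total counts gave 1 higher, and limma gave 1 lower and 0 higher on log2(TPM + 1) and 0 higher on log2(TPM + 0.1). Leaving out 1 library gave 1 to 10 lower and 0 to 19 higher. DESeq2 without dCas9-KRAB replicate 1 gave 8 and 8, with 7.29% lower and 4.9% higher over all genes.

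Among the 25 named genes tested, signs reversed for 4 uncalled receptors near 0. The uncalled ligand *Ccl25* went from 0.17 to -0.29 with the replicate block. *Ccr1* was at 0.13 with total counts and 0.036 with limma on log2(TPM + 1), and at -1.82 to 0.38 without 1 library. *Ccr10* was at 0.077 and 0.14 with limma at the pseudocounts of 1 and 0.1, 0.021 with the block, and -0.44 to 0.15 without 1 library. *Cx3cr1* was at 0.09 with total counts, 0.15 and 0.15 with limma, 0.008 with the block, and -0.32 to 0.28 without 1 library. *Cxcr3* was at 0.004 and 0.10 with limma, 0.006 with the block, and -0.64 to 0.33 without 1 library.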

Other observations

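Markers of other cell types were also read, as values beside the chemokine results. Summed over each list, neutrophil markers were at 8.99 to 22.2 TPM and endothelial markers at 0.0839 to 0.86 TPM over the 6 libraries. The groups did not overlap in T and NK cell markers (7.52 to 8.35 TPM in dCas9-KRAB, 3.24 to 5.21 TPM in dCas9-KRAB-En5), dendritic cell markers (2.47 to 3.94 and 0.253 to 0.411 TPM) or epithelial markers (3.23 to 6.29 and 0.0336 to 0.945 TPM). These sums rest on few genes. Only 1 of 7 epithelial markers and 4 of 10 T and NK cell markers were listed, and the dendritic sum in dCas9-KRAB was mostly *Siglech*. B cell markers summed to 56.8 to 207 TPM, nearly all of it *Ighm*. Fibroblast markers summed to 70.3, 206 and 96.4 TPM in dCas9-KRAB and 39.2, 25.7 and 20.9 TPM in dCas9-KRAB-En5. In edgeR, 8 of 9 tested myogenic markers were lower, as was *Col1a1* among 6 tested fibroblast markers. *Siglech* of the dendritic list, *Zap70* of the T and NK cell list and *Pax5* of the B cell list were lower too. Each of these 3 lists had 2 tested genes. Over all genes tested, 4.67% were called lower and 1.52% higher. The call of *Zap70* was lost with the replicate block (adjusted p = 0.0108 in edgeR). *Adgre1*, which encodes the macrophage marker F4/80, was at 17.7, 7.62 and 9.09 TPM in dCas9-KRAB and at 135, 122 and 29.6 TPM in dCas9-KRAB-En5 (log2 fold change 2.68, SE 0.54, adjusted p = 0.00706 in edgeR), without overlap. *Siglech* was at 3.68, 2.09 and 3.01 TPM in dCas9-KRAB and listed in no dCas9-KRAB-En5 library. It passed the filter through the dCas9-KRAB libraries alone, so its call follows in part from that filter. *Csf1r*, the receptor of macrophage colony-stimulating factor, was at 133, 443 and 323 TPM in dCas9-KRAB and at 505, 668 and 186 TPM in dCas9-KRAB-En5, with overlap and no call. The part of these lists in the chemokine results was not tested.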
